A study of Mus musculus with 10 samples.

Results

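The genes described here are the semaphorins, plexins, ephrins, Eph receptors, Slits and Robos, the main families of axon guidance ligands and receptors. They were chosen by name, as all non-control probes whose gene name begins with Sema and a digit, Plxn, Epha, Ephb, Efna, Efnb, Slit and a digit, or Robo. The rule found 108 of the 41174 non-control probes, for 58 genes, of which 31 encode ligands and 27 encode receptors. Of these probes 100 entered the test, and all 58 genes were among the 20069 genes tested. The probe that stood for the gene was well above background on all 10 arrays for each of the 58, so no member entered through 1 group alone.

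RNA came from the hippocampus of grown offspring of ICR mice, an outbred stock, and every sample is labelled male. In the high estradiol group (HE, 5 arrays), pregnant dams had swallowed estradiol valerate, an ester that releases estradiol, in corn oil; the daily dose was 100 µg per kg, starting at E5.5 of gestation and ending at E11.5. Dams of the control group (NC, 5 arrays) had received corn oil alone in the same volume. The labels give no litters, so the p-values measure only the spread between these samples, which may share dams.

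Semaphorins are secreted or membrane-bound ligands that act mainly through plexins, several of them with neuropilins as co-receptors, and are best known for repelling growth cones. Ephrins are bound to the membrane and their Eph receptors are tyrosine kinases, so that both partners can signal where cells touch, while Slits are secreted and repel axons through Robo receptors. In the adult hippocampus these families are known for roles at dendritic spines and synapses and in the layering of mossy fibres.

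Promoter windows of 4 members are shown first, 2 that were higher and 2 that were lower in HE, because the exposure was to an estrogen and the letters let its response element be looked for. Each runs from 250 bases before to 50 after the gene's start, 5′ to 3′ on the gene's strand, from RefSeq on GRCm38.p6. Capitals mark GC boxes (GGGCGG) and estrogen response element half-sites (AGGTCA) on either strand.
Plxnd1, chr6:115994956-115995255, minus strand: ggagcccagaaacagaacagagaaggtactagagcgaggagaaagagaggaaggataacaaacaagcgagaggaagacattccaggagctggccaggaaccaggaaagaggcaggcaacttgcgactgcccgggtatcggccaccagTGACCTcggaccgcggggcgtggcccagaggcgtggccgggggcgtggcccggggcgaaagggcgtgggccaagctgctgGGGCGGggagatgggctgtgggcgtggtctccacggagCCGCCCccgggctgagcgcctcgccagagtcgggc
Ephb6, chr6:41605261-41605560, plus strand: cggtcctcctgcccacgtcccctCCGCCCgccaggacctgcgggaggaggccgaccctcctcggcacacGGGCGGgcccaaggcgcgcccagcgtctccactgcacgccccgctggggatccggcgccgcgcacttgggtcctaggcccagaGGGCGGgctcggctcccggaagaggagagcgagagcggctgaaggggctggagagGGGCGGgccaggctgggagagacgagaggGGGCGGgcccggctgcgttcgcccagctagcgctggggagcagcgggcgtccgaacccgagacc
Plxnb3, chrX:73756853-73757152, plus strand: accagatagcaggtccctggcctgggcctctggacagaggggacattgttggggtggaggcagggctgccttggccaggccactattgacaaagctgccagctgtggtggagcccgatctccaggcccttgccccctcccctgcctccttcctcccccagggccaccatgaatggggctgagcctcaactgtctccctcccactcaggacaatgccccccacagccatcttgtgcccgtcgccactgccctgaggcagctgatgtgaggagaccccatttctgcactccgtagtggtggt
Sema3d, chr5:12382916-12383215, plus strand: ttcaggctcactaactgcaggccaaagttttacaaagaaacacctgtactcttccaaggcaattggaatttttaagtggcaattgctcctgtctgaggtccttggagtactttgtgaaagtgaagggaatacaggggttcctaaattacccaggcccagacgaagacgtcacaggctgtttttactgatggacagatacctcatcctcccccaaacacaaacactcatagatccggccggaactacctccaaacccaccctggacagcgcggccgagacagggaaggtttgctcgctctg

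Windows were given for 51 of the 58 genes, 67 windows in all. No member window held the full estrogen response element, searched as GGTCA and TGACC with 3 bases of any kind between them, and 0.0700% of all 32851 windows did. The half-site, most of which lies within the full element, was in 8 of the 67 member windows (11.9%), against 16.3% of all windows. Of the members past the test, it was found for Plxnd1 and Sema4d. The GC box was in 47 of the 67 (70.1%), against 35.7% of all windows, and the member windows had a median G and C content of 64.0%, against 52.7%. Among members past the test, the windows of Ephb6 (higher) and Sema4g (lower) hold 5 and 4 GC boxes, and those of Sema4f (higher), Plxnb3 and Sema3d (both lower) hold none. These are matches of letters and not sites shown to be bound.

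Signals are given as log2 of the processed signal relative to the array's 75th percentile, differences as HE minus NC on that scale, and a gene passed at a limma p under 0.05 after adjustment over all genes. Of the 58 genes, 7 were higher and 4 were lower in HE, or 12.1% and 6.90%. Over all genes tested, 6.82% were higher and 13.3% were lower. In either direction 11 of 58 passed (19%), near the 20.1% of all genes, so the total is not a result about these families. The median log2 fold change was 0.13 over the members and -0.04 over all genes. Values were positive for 38 of the 58 members and for 9100 of the 20069 genes tested. No overlap between HE and NC arrays was seen for 5 of the higher and 4 of the lower members, where 5.90% and 10.5% of all genes had none. With normexp background correction, which shifted the median of all genes to -0.28, 10 members were higher and 12 lower, where 9.27% of all genes were higher and 34.2% lower.

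**Figure D1:**
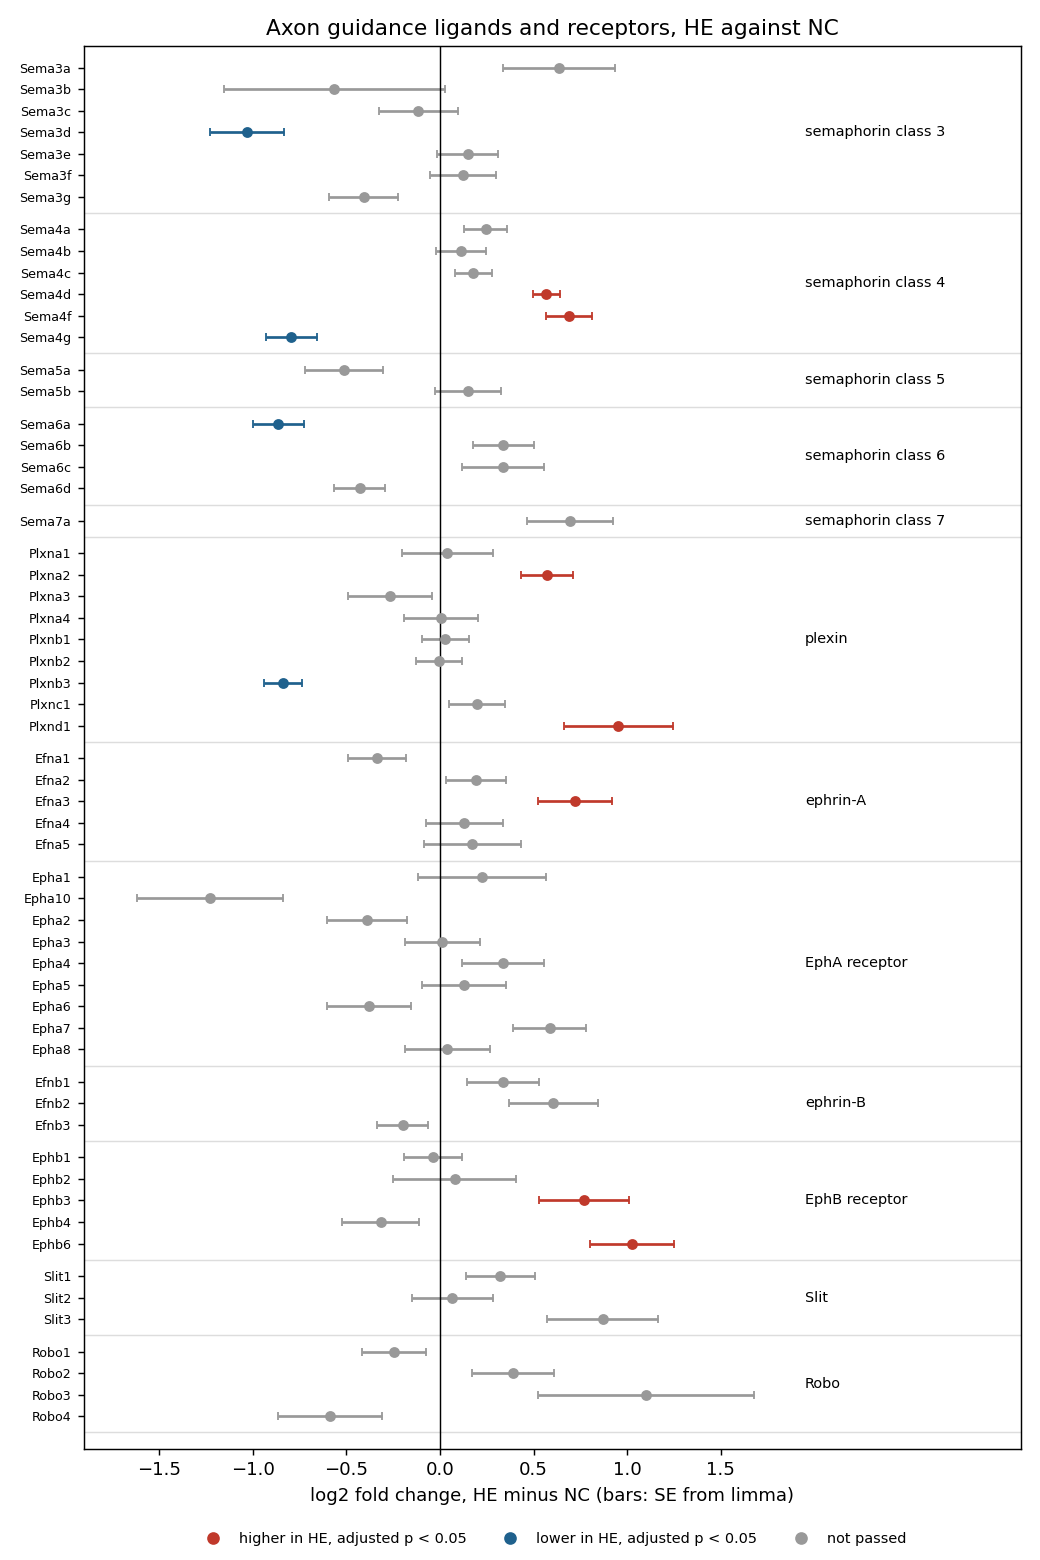
Log2 fold change (HE minus NC, horizontal axis) of each of the 58 genes, grouped by family from top to bottom, with bars for the SE from limma. The 7 red points (higher in HE) and 4 blue points (lower in HE) passed, and they lie in semaphorin classes 3, 4 and 6, plexins, ephrin-A and EphB.

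By family, 2 of 20 semaphorins rose and 3 fell, 1 of 8 ephrins rose, 2 of 9 plexins rose and 1 fell, and 2 of 14 Eph receptors rose. No Slit (3 genes) and no Robo (4 genes) passed. Both Eph receptors that rose are EphB receptors, of which there are 5, and none of the 9 EphA receptors passed. With 20.1% of all genes passing in either direction, counts in families this small do not set 1 family apart from another.

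Some facts of the arrays bear on these values. The 75th percentile of the signal was 1148 to 1289 on HE arrays and 899 to 1200 on NC arrays. Slide 3 held HE 3 to HE 5, slide 2 held HE 1, HE 2 and NC 5, and slide 1 held NC 1 to NC 4. Xist, the RNA of the inactive X chromosome, read 3.20 to 4.44 on HE 1 to HE 3 and NC 1 to NC 4, against the male label, and -7.26 to -4.53 on HE 4, HE 5 and NC 5. Whether the group labels of these arrays are affected too was not tested, and every difference between HE and NC rests on those labels. The 18 markers of hippocampal and forebrain neurons were well above background on all 10 arrays, and 4 were higher in HE. Of 23 thalamus and habenula markers, 20 were well above background on all 10 arrays, and 12 of these were lower in HE and none higher. Of 24 myelin and oligodendrocyte markers, all of them well above background on all 10 arrays, 14 were lower and none higher. Of 13 liver markers, 7 were lower in HE and none higher, and only 4 were well above background on all 10 arrays. Their median log2 signal was -1.45, -1.85 and -2.30 on NC 1, NC 2 and NC 4. It was -7.39 and -4.82 on NC 3 and NC 5, and -8.45 to -6.09 on HE arrays. Their summed linear signal was highest on NC 3 (19.4). The part of liver RNA in the values of the members was not tested. In bulk tissue, fewer cells of a type and less RNA per cell cannot be told apart.

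Among the ligands, Sema4d rose (probe at chr13:51797902-51797961, mm9). It is a transmembrane semaphorin that signals through plexin-B1 and is known for promoting inhibitory synapses. It read -0.38, -0.35, -0.34, -0.29 and -0.31 on HE 1 to HE 5, against -0.97, -0.88, -0.96, -0.76 and -0.94 on NC 1 to NC 5. All HE arrays lay above every NC array, in a pair of tight groups. The difference was 0.57 ± 0.07 SE (limma adjusted p = 0.00426), a 1.48-fold rise. A second probe, with 0.60 ± 0.23 SE, did not pass over probes (limma adjusted p = 0.0791). The signal of that probe was low, averaging -5.29 in HE and -5.89 in NC. Plxnb1, the receptor of Sema4d, had 0.03 and did not pass.

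Sema4f, a transmembrane semaphorin reported to bind the postsynaptic scaffold PSD-95, also rose (chr6:82862388-82862447). It read 0.04, -0.08, -0.10, 0.18 and 0.16 on HE 1 to HE 5, against -0.58, -0.65, -0.83, -0.30 and -0.87 on NC 1 to NC 5. Each HE array was above the highest NC array, NC 4. A difference of 0.69 ± 0.12 SE resulted (limma adjusted p = 0.0106), or 1.61-fold.

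Sema4g, a transmembrane ligand of plexin-B2, fell (chr19:45077642-45077701). It read -0.93, -0.92, -1.30, -0.71 and -0.80 on HE 1 to HE 5, against -0.38, -0.14, -0.23, -0.10 and 0.16 on NC 1 to NC 5. HE and NC arrays were apart, with HE 3 lowest and NC 5 highest. The fall had a log2 fold change of -0.79 ± 0.13 SE (limma adjusted p = 0.00935). Class 4 thus held members that moved both ways, while Sema4a, Sema4b and Sema4c had 0.24, 0.11 and 0.18 and did not pass.

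Sema6a, a transmembrane ligand of plexin-A2 and plexin-A4 that takes part in mossy fibre layering, fell (chr18:47405055-47405114). It read -0.69, -1.14, -0.97, -0.69 and -0.84 on HE 1 to HE 5, against -0.19, -0.03, 0.07, -0.22 and 0.36 on NC 1 to NC 5. No HE array reached the lowest NC array. The log2 fold change was -0.86 ± 0.14 SE (limma adjusted p = 0.00752). A second probe had -0.14 and did not pass over probes, but its signal was low, averaging -4.44 in HE and -4.31 in NC. In the rest of class 6, Sema6b and Sema6c had 0.34 and 0.34 and did not pass.

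Sema3d, a secreted semaphorin that acts through neuropilins, fell (chr5:12586136-12586195). It read -4.56, -4.64, -5.29, -4.37 and -4.84 on HE 1 to HE 5, against -4.21, -3.40, -3.75, -3.53 and -3.67 on NC 1 to NC 5. The groups were apart, though HE 4 and NC 1 came close. This gave -1.03 ± 0.20 SE (limma adjusted p = 0.0124), a 2.04-fold fall. The signal was low, with only 20.7% of the genes tested below its mean. With no filter on dim probes, the median over all genes was -0.14, against -0.04. The part of low signal in the fall of Sema3d was not tested. The size of the fall varied with processing, from -0.77 with quantile normalization to -1.43 with normexp. None of the other 6 class 3 genes passed, and they ran from -0.56 (Sema3b) to 0.64 (Sema3a, the classic growth cone repellent). Sema3e, the ligand of plexin-D1, averaged 0.76 ± 0.12 in HE and 0.61 ± 0.35 in NC (SD, n = 5 each).

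Efna3, a lipid-anchored ephrin known from hippocampal astrocytes, where it meets EphA4 on dendritic spines, rose (chr3:89118568-89118627). It read 0.71, 0.77, 0.87, 0.79 and 1.14 on HE 1 to HE 5, against 0.23, -0.18, 0.50, 0.58 and -0.44 on NC 1 to NC 5. The HE arrays lay above all NC arrays, of which NC 3 and NC 4 came closest. The rise was 0.72 ± 0.20 SE (limma adjusted p = 0.0320). It no longer passed without NC 2, NC 5, HE 1, HE 3, HE 4 or HE 5, with values of 0.58 to 0.76. Beside it, 3 of 14 astrocyte markers were lower in HE and none higher, and their summed linear signal was 301 to 348 on HE arrays and 369 to 464 on NC arrays; their part in the Efna3 value was not tested.

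Several ligands lay near the threshold without passing it. Sema7a, a lipid-anchored semaphorin that binds plexin-C1 and integrins, read 4.63, 4.57, 4.38, 4.54 and 4.31 on HE 1 to HE 5, against 4.63, 3.32, 3.96, 3.66 and 3.39 on NC 1 to NC 5. NC 1 was the highest of the 10 arrays, just above HE 1, and the other NC arrays lay below all HE arrays. The difference was 0.69 ± 0.23 SE (limma adjusted p = 0.0560), and it passed without NC 1. Slit3, a secreted ligand of Robos, averaged -0.40 ± 0.51 in HE and -1.27 ± 0.52 in NC (SD, n = 5 each), with 0.87 ± 0.30 SE (limma adjusted p = 0.0641), and also passed without NC 1. Efnb2, a transmembrane ephrin, averaged 1.15 ± 0.40 in HE and 0.54 ± 0.41 in NC, with 0.61 ± 0.24 SE (limma adjusted p = 0.0920). Sema5a, a transmembrane semaphorin with thrombospondin repeats, averaged 1.03 ± 0.47 in HE and 1.54 ± 0.18 in NC, with -0.51 ± 0.21 SE (limma adjusted p = 0.107).

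The other ligands did not pass either. Sema4a averaged 1.54 ± 0.18 in HE and 1.30 ± 0.16 in NC, Efna5 1.61 ± 0.46 in HE and 1.44 ± 0.44 in NC, Efnb3 3.02 ± 0.26 in HE and 3.22 ± 0.16 in NC and Slit2 0.71 ± 0.43 in HE and 0.64 ± 0.29 in NC (SD, n = 5 each). Differences were -0.34, 0.19 and 0.13 for Efna1, Efna2 and Efna4, 0.34 for Efnb1, 0.32 for Slit1, 0.15 for Sema5b, and -0.11, 0.12 and -0.41 for Sema3c, Sema3f and Sema3g.

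Among the receptors, Plxnb3 fell and had the smallest p of the 58 (chrX:71017572-71017631). This plexin is known from oligodendrocytes. It read 0.76, 0.88, 0.46, 0.78 and 0.74 on HE 1 to HE 5, against 1.48, 1.56, 1.79, 1.44 and 1.55 on NC 1 to NC 5. A wide gap separated the groups, with HE 3 lowest and NC 3 highest. The log2 fold change was -0.84 ± 0.10 SE (limma adjusted p = 0.00414), a 1.79-fold fall. Beside it, the summed linear signal of the 24 myelin and oligodendrocyte markers was 302 to 390 on HE arrays and 507 to 654 on NC arrays, lowest on HE 5 and highest on NC 3. All 24 were well above background on every array, and their part in the falls of Plxnb3 and Sema6a was not tested. Of 12 markers of oligodendrocyte precursors, 1 was lower and none higher.

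Plxna2, a receptor of Sema6a and of class 3 semaphorins, rose (chr1:196642958-196643017). It read 2.78, 2.72, 3.06, 2.72 and 2.81 on HE 1 to HE 5, against 2.57, 2.22, 2.18, 2.42 and 1.85 on NC 1 to NC 5. HE 3 was the highest array and NC 5 the lowest, without overlap. The log2 fold change was 0.57 ± 0.14 SE (limma adjusted p = 0.0218). Its other probes had 0.38 and 0.33 and did not pass, nor did the mean of the 3 probes (0.42). Without NC 2 the value was 0.56 and did not pass. Plxna4, the other receptor of Sema6a, had 0.01.

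Plxnd1, the receptor of Sema3e, best known from blood vessels, rose (chr6:115905315-115905374). It read -0.45, -0.68, -0.04, -0.45 and 0.12 on HE 1 to HE 5, against -0.32, -1.17, -1.21, -1.45 and -2.09 on NC 1 to NC 5. NC 1 lay within the HE range, so the groups overlapped. The difference was 0.95 ± 0.29 SE (limma adjusted p = 0.0451), and of 10 fits that each left out 1 array it passed only in the one without NC 1 (range 0.74 to 1.18). Of 18 markers of endothelium and mural cells 1 was higher and 3 were lower in HE, with a summed linear signal of 17.3 to 18.8 on HE arrays and 17.5 to 25.4 on NC arrays. Their part in the Plxnd1 value was not tested.

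Ephb6, an EphB receptor whose kinase domain is inactive, rose (chr6:41569264-41569323). It read -0.58, -0.51, -0.82, -0.49 and -0.71 on HE 1 to HE 5, against -1.06, -2.08, -1.54, -1.28 and -2.29 on NC 1 to NC 5. The HE arrays were close together and above all NC arrays, which spread widely. This was a 2.03-fold rise, 1.02 ± 0.22 SE on the log2 scale (limma adjusted p = 0.0167).

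Ephb3, an active receptor kinase for ephrin-B ligands, rose (chr16:21223025-21223084). It read 0.09, 0.12, -0.70, -0.13 and -0.42 on HE 1 to HE 5, against -0.48, -1.15, -0.80, -0.76 and -1.69 on NC 1 to NC 5. HE 3 lay below NC 1, so the groups overlapped. The difference of 0.77 ± 0.24 SE was close to the threshold (limma adjusted p = 0.0483). Of 10 fits that each left out 1 array, it passed in those without NC 1 and without HE 3 (range 0.59 to 0.89). Ephb2 and Ephb4 had 0.08 and -0.32 and did not pass, and Ephb1 averaged 0.51 ± 0.33 in HE and 0.54 ± 0.13 in NC (SD, n = 5 each).

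**Figure D2:**
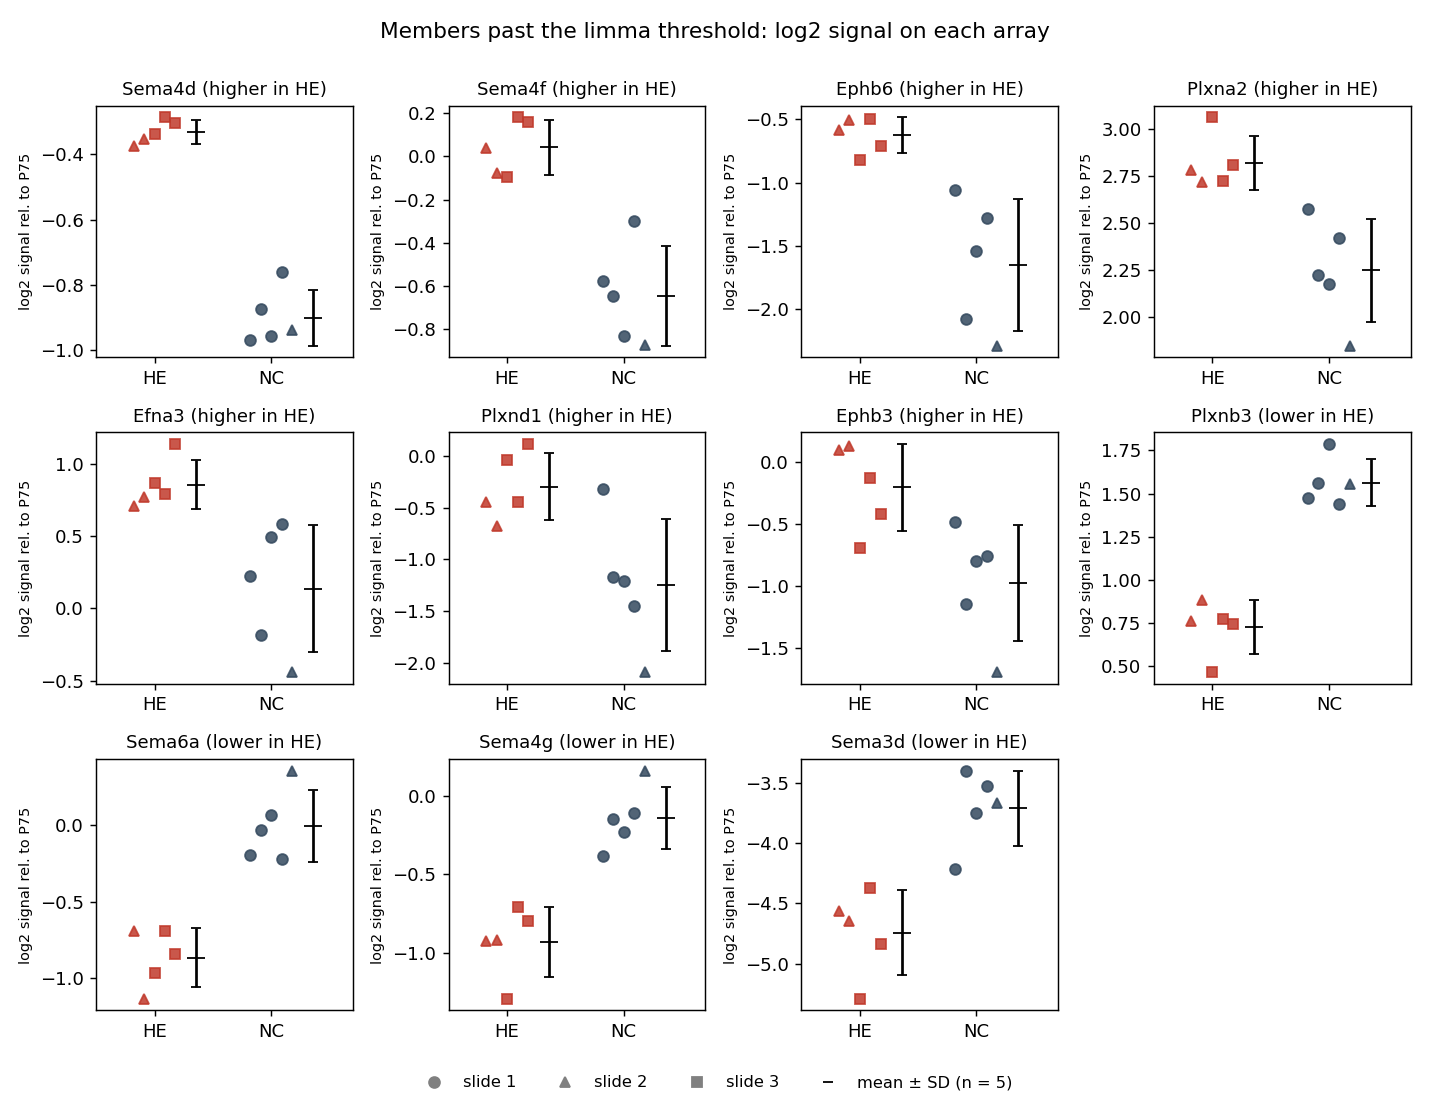
Log2 signal relative to the array's 75th percentile (vertical axis) of the 11 members that passed, HE arrays left and NC arrays right, with symbols for the slide and black bars for the mean ± SD of 5 arrays. The groups are apart in every panel except Plxnd1 and Ephb3, and NC 5 (slide 2) is the lowest NC array in 6 of the 7 panels of higher genes.

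Among receptors that did not pass, Epha10, an Eph receptor without an active kinase, was nearest to the threshold. It read -3.44, -2.72, -4.25, -2.93 and -2.59 on HE 1 to HE 5, against -1.84, -1.36, -2.78, -2.56 and -1.26 on NC 1 to NC 5. HE 2 and HE 5 lay above NC 3, and the other HE arrays below all NC arrays. The difference was -1.23 ± 0.39 SE (limma adjusted p = 0.0507). Epha7, a receptor of ephrin-A ligands, had 0.59 ± 0.20 SE (limma adjusted p = 0.0601).

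Robo3, which lets commissural axons cross the midline, was uneven. It read 1.07, 1.63, 0.10, 1.78 and 1.45 on HE 1 to HE 5, against 2.19, -0.67, 0.45, -0.87 and -0.56 on NC 1 to NC 5. NC 1 was the highest of all 10 arrays. The difference of 1.10 ± 0.58 SE did not pass (limma adjusted p = 0.195), and it passed without NC 1. Robo4, a receptor of endothelial cells, averaged -1.28 ± 0.23 in HE and -0.69 ± 0.64 in NC (SD, n = 5 each), and Robo1 had -0.24.

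Of the other EphA receptors, Epha4, the partner of Efna3 on spines, averaged 3.62 ± 0.16 in HE and 3.28 ± 0.49 in NC (SD, n = 5 each), and Epha1, Epha2, Epha3, Epha5, Epha6 and Epha8 ran from -0.39 (Epha2) to 0.22 (Epha1). Plxna1, Plxna3, Plxnb2 and Plxnc1 had 0.04, -0.27, -0.01 and 0.20. A missed threshold does not show that these genes were alike in both groups.

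Of 30 members with several entering probes, 10 had probes of opposite sign. Probes of Robo2 and Sema6d are shown by the first 30 of their 60 bases, 5′ to 3′, as the deposited files give them with positions on mm9. They were chosen because Robo2 had a probe past the threshold in each direction, and because the Sema6d probes past it differed in size.
Robo2, chr16:73892879-73892938, minus strand: gttgccagtttatatgtgatttcatggaac
Robo2, chr16:74044735-74044794, minus strand: ccacaagtatggctcttctatttaaagaaa
Sema6d, chr2:124493141-124493200, plus strand: tattaatcccagcgtggtaactctgtgtga
Sema6d, chr2:124487717-124487776, plus strand: actttggaaatctgcataatgtgtcttcat

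Robo2 is a main receptor of Slits. Its 3′-most probe, the first shown, read -1.81, -1.99, -1.55, -1.68 and -1.57 on HE 1 to HE 5, against -1.99, -2.18, -3.01, -2.40 and -3.16 on NC 1 to NC 5. All HE arrays lay above all NC arrays, NC 1 by a very small margin, with 0.83 ± 0.22 SE (limma adjusted p = 0.0277 over 30981 probes). The second shown, 152 kb further 5′ in the genome, read -5.78, -5.36, -5.70, -5.75 and -5.07 on HE 1 to HE 5, against -3.93, -4.19, -5.18, -4.95 and -4.35 on NC 1 to NC 5. It went the other way, with HE 5 inside the NC range, at -1.01 ± 0.25 SE (limma adjusted p = 0.0207 over probes). The signal of this probe was low, averaging -5.53 in HE and -4.52 in NC. The lowest signal well above background ran from -7.21 (HE 5) to -6.07 (NC 3). With no filter on dim probes, the median over all genes was -0.14, against -0.04. The part of low signal in this value was not tested. The remaining entering probes, among them the one that stood for the gene, had 0.39, 0.35 and 0.69 and did not pass.

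Sema6d is a transmembrane ligand of class A plexins. The probe that stood for the gene averaged 1.80 ± 0.07 in HE and 2.23 ± 0.29 in NC (SD, n = 5 each) and missed the threshold over genes, at -0.43 ± 0.14 SE (limma adjusted p = 0.0509). Over probes it passed (limma adjusted p = 0.0472). The probe 5.42 kb further 5′ read -1.08, -1.0, -1.75, -0.81 and -0.68 on HE 1 to HE 5, against 0.49, 0.66, 0.08, 0.22 and 0.22 on NC 1 to NC 5. There the groups were far apart, at -1.40 ± 0.20 SE (limma adjusted p = 0.00602 over probes). A probe between the 2 shown had -0.14 and did not pass. Its signal was low, averaging -5.49 in HE and -5.35 in NC, so little can be read from its value. Which transcripts each probe reads was not analysed here.

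Tested by themselves, 10 of the 100 probes were higher and 10 lower in HE, where 8.20% and 14.7% of all probes were. Among them were second probes of genes that did not pass, namely Epha4 with 0.70, Sema4c with 1.33, Plxnb2 with -0.61 and Sema5a with -0.73. Signals were low for the probes of Sema4c (-2.48 in HE, -3.82 in NC), Plxnb2 (-3.97 and -3.36) and Sema5a (-4.29 and -3.56).

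**Figure D3:**
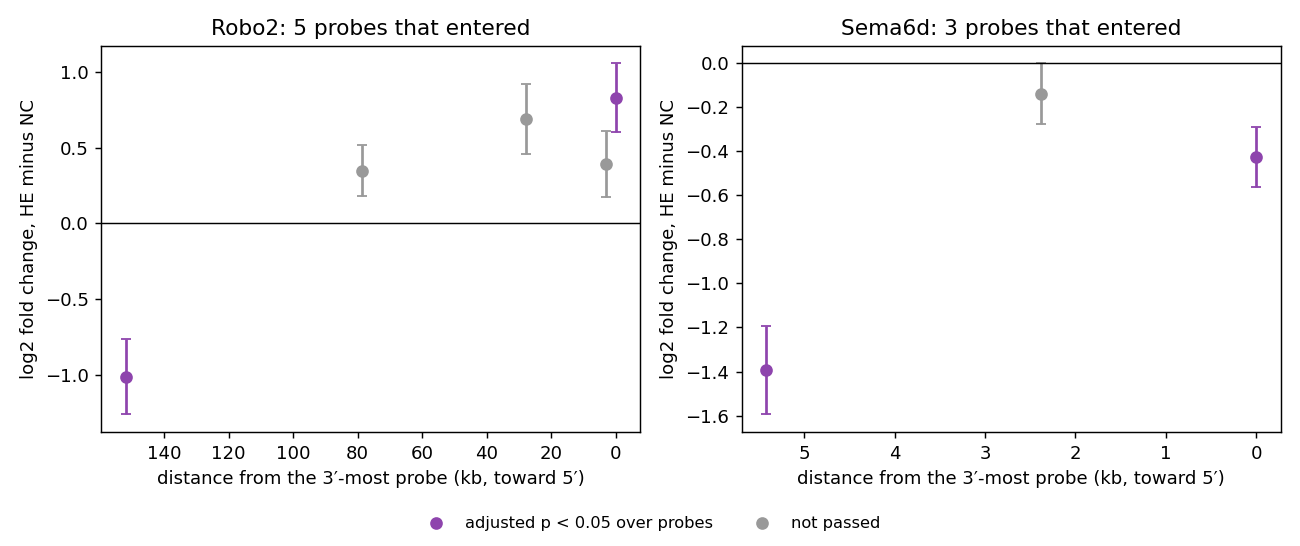
Log2 fold change (HE minus NC, vertical axis, bars for the SE) of the entering probes of Robo2 (left) and Sema6d (right) against their distance from the 3′-most probe in kb. Purple points passed over probes: Robo2 has 0.83 at the 3′ end and -1.01 at 152 kb, and Sema6d has -0.43 at the 3′ end and -1.40 at 5.42 kb. The Robo2 probe at 152 kb had a low signal.

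Slide 2 was the only slide with both groups, so a fit with slide as a block takes each value from HE 1 and HE 2 against NC 5. All 11 members kept their direction there. For the 5 higher and 4 lower members without overlap this was fixed in advance, since every HE array lay beyond every NC array. The higher genes had 0.57 (Sema4d), 0.86 (Sema4f), 1.18 (Efna3), 0.90 (Plxna2), 1.53 (Plxnd1), 1.74 (Ephb6) and 1.80 (Ephb3). The lower genes had -1.09 (Sema4g), -1.27 (Sema6a), -0.94 (Sema3d) and -0.73 (Plxnb3). Only Ephb3 passed in that fit (limma adjusted p = 0.0479), where 0.518% of all genes were higher and 0.404% lower, and at an unadjusted limma p under 0.05, 13 members were higher and 5 lower, where 9.43% of all genes were higher and 14.1% lower. These values rest on the single array NC 5.

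On the 7 arrays with high Xist no slide held both groups, and no member passed by limma, where 10 genes (0.0522%) were higher and 86 (0.449%) lower in all. At an unadjusted limma p under 0.05, 7 members were higher and 7 lower, where 10.1% of all genes were higher and 17% lower. All 11 members kept their direction there, with log2 fold changes of 0.50 (Efna3) to 0.85 (Ephb6) for the higher genes and of -1.11 (Sema3d) to -0.83 (Sema4g) for the lower. For the 5 higher and 4 lower members without overlap, no subset of the arrays could reverse the direction. Leaving out 1 array changed the 7 higher members to 10 without NC 1, where 7.9% of all genes were higher, against 6.82% on all arrays. Higher members numbered 3 without NC 2 and 4 without NC 5, HE 4 or HE 5, where higher genes in all were 3%, 3.89%, 4.52% and 3.76%.

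**Figure D4:**
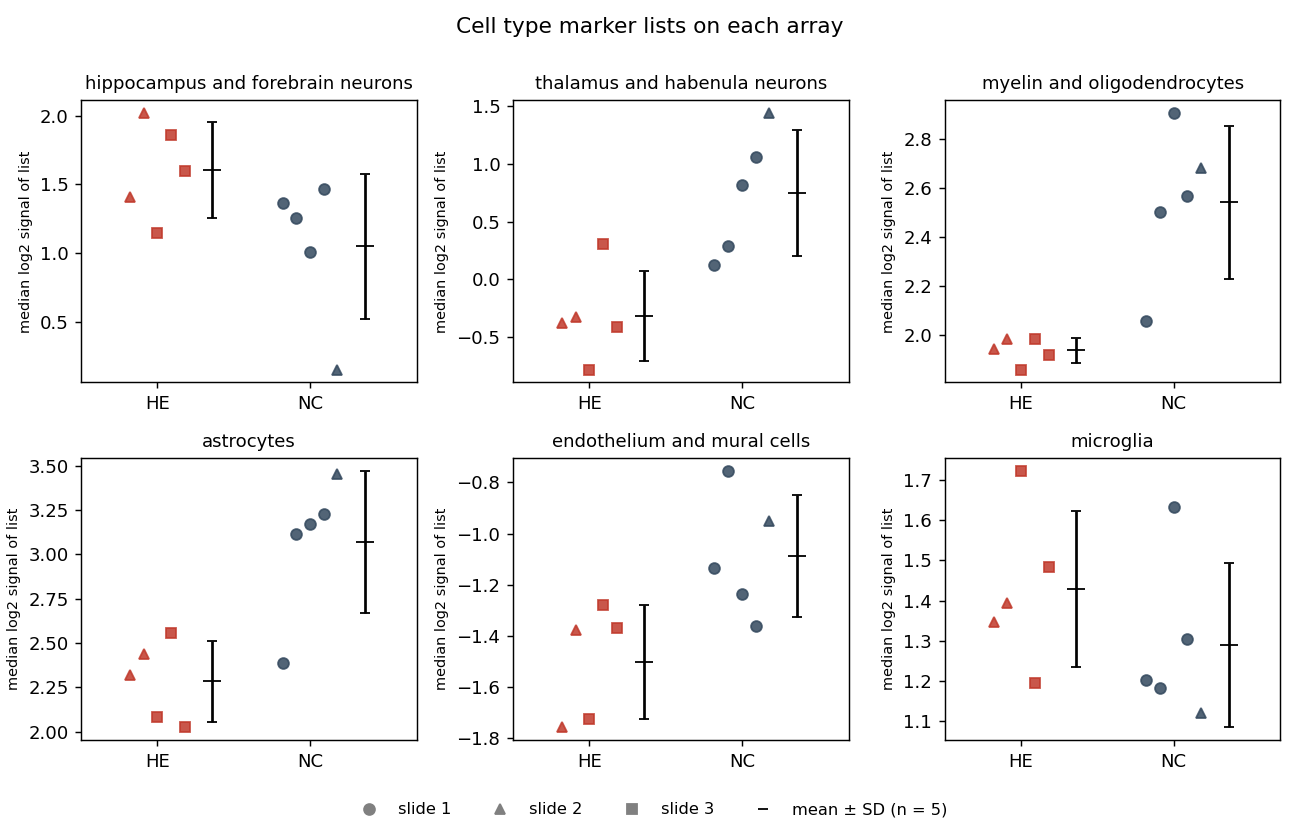
Median log2 signal of 6 lists of cell type markers (vertical axes) on each array, HE left and NC right, with symbols for the slide and black bars for the mean ± SD of 5 arrays. The myelin medians are lower in HE without overlap, those of thalamus overlap at HE 4 (0.30), and NC 5 has the lowest median of hippocampal and forebrain neurons (0.16).

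Thalamus and habenula markers, of neighbouring regions, moved with the groups and with NC 5. Their summed linear signal was 20.3 to 49.4 on HE arrays and 47.3 to 116 on NC arrays, with NC 5 highest, and 2 of the 25 listed, Chrna3 and Chrnb4, were not tested. NC 5 also had the highest value of Epha10, Sema4g and Sema6a among the 10 arrays. Of the NC arrays, it was the highest for 9 of the 58 members and the lowest for 22, counts that were not made over all genes. NC 3, with a thalamus and habenula sum of 98.6, had the lowest Epha10 value of the NC arrays (-2.78). The part of thalamic RNA in these values was not tested.

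Genes that work with these families were read from 3 lists. Over all genes tested, 6.82% were higher and 13.3% lower, or 20.1% in either direction. Calls in each list were near or under that total, so the counts are not a result about the lists. Of 16 other guidance ligands 2 fell and none rose. Ntng1, a netrin-G known from thalamic neurons, had -1.72 ± 0.24 SE (limma adjusted p = 0.00617), and Mag, a myelin protein that inhibits axon growth and is also in the myelin list, had -0.66. Of 30 other receptors and adhesion molecules 3 rose and 1 fell. Lingo1, a co-receptor of the Nogo receptor, had 1.36 ± 0.25 SE (limma adjusted p = 0.0112), Flrt1 and Dscaml1, both adhesion molecules, had 1.02 and 0.75, and the netrin receptor Unc5b had -0.63.

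Of 55 signalling genes 5 rose and 5 fell, where 6.82% of all genes were higher and 13.3% lower. Ngef, the exchange factor ephexin that EphA receptors activate, had 1.22 ± 0.36 SE (limma adjusted p = 0.0395). Chn1, a Rac regulator downstream of EphA4, had 0.61, the adaptor Nck2 0.65, and Spred1, an inhibitor of Ras signalling, 0.37. Among those that fell, the exchange factor Vav3 had -1.36 ± 0.31 SE (limma adjusted p = 0.0180), the actin regulator Enah -0.50, the kinase Fes -0.38 and the Ras inhibitor Rasa1 -0.25. The median log2 fold change was 0.0044 over the ligands, 0.01 over the receptors and 0.03 over the signalling genes, against -0.04 over all genes.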

How the data were processed

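The arrays were 1-colour Agilent mouse arrays with Cy3-labelled RNA. The submitters' processing notes name Agilent Feature Extraction 10.7. The processed signal is spot intensity on a linear scale with the background subtracted, per the file headers. The deposited value table holds log2 values whose normalization is not given in the sources used here; set against quantile-normalized log2 signals of the same arrays its columns had slopes of 1.0016 to 1.0036, and each had a median of 7.03.

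Here each array's log2 processed signal was set relative to its 75th percentile. Outlier spots (68 to 129 per array) were left out, and none was saturated. Probes had to be well above background on 3 or more arrays of HE or of NC, which 30981 were. The entering probe with the highest mean stood for a gene, named through RefSeq (GRCm38.p6) where it matched. Member probes were chosen by the name in the files and then named in the same way. The test was limma 3.58.1 (lmFit, then eBayes; two-sided and without covariates, in R 4.3.3) over the 10 arrays, adjusted over all genes by Benjamini-Hochberg and tested on simulated data. The simulated data had independent normal noise and no slide effect, so they do not bear on differences of slide or tissue. Precision is limited by the number of arrays.

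The members, lists and alternatives were chosen with earlier results of these data known. By rule, values on every array are given for members that passed, group means for the member of each family with the smallest p or the highest mean signal, and pathway genes are named where they passed, except 2 that are not reported here. The motifs, and the probes and further members given in full, were chosen after their values were seen. Alternatives covered slide, replicate number, background correction, normalization, the value table, filters, probe choice, the variance prior, Xist and leaving out arrays.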

Additional observations from a re-analysis of the deposited data

Results flagged for a closer look

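In 7 of 116 groups of 5 arrays (each of the 58 members in HE and in NC), 1 array stood apart from the other 4, where chance gives about 1 in 20. Plxna2, which rose, read 3.06 on HE 3, with 2.72 to 2.81 on the rest of its group. Plxnb2 read 0.23 on HE 3, with 0.58 to 0.67 on the rest. On NC arrays, Efna5 read 2.21 on NC 1 (1.15 to 1.32 on the rest), Efnb1 read 0.24 on NC 5 (1.02 to 1.19), and Sema3c read -3.58 on NC 3 (-3.22 to -3.12). Sema6d read 1.72 on NC 1 (2.29 to 2.49), and Slit1 read -1.44 on NC 4 (-2.39 to -2.21).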

How the results depend on the processing

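Over 24 alternatives, the 11 members that passed kept their direction in all 264 values, and 208 of these passed. For the 5 higher and 4 lower members without overlap, fits on fewer arrays could not reverse the direction. Ephb6, Plxnb3, Sema3d, Sema4d, Sema4f, Sema4g and Sema6a each passed in 22 of 24, failing with slide as a fixed block and on the arrays with high Xist alone. Counts are given as higher and lower members, then higher and lower genes in all, against 7, 4, 1369 and 2662. With slide as a fixed block they were 1, 0, 104 and 81, and on the arrays with high Xist alone 0, 0, 10 and 86 (unadjusted limma counts of members are in the report). With normexp they were 10, 12, 1860 and 6866, and with each probe by itself 10, 10, 2541 and 4568. Without NC 1, NC 2 and NC 4, the arrays with the highest medians of the liver markers, they were 8, 5, 893 and 1012. Quantile normalization gave 9, 5, 1930 and 2376, so that 44.8% of all calls were higher, against 34.0%; with normexp 21.3% were. Leaving out 1 array gave 3 to 10 higher and 4 to 6 lower members, and 597 to 1570 higher and 1315 to 2716 lower genes. Of the 47 members that did not pass, 22 passed and 22 changed sign in some of the 23 alternatives with 1 value per gene, and Plxnb2 passed with each probe by itself only. The causes were not tested.

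With the replicate number as a block, 3 members were higher and 5 lower, and 766 and 2210 genes in all. Whether the numbers pair the samples was not settled. Deviations of same-numbered arrays had correlations of -0.08 to 0.13, and for 2 of 5 numbers both arrays correlated best with each other.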

Other observations

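HE 3 was the lowest HE array for 34 of the 58 members, and NC 5 was the lowest NC array for 22. These counts were not made over all genes, so they are not a result about the members. The SD was larger among NC than among HE arrays for 37 members (63.8%), near the 64.0% of all genes.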
